A study of Mus musculus with 6 samples.

Results

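Gap junction genes were followed in oocytes of naturally aged mice, with 6 members chosen by name from the 25631 genes of the deposited table: the connexin genes Gja4, Gja1, Gja5, Gjb2 and Gjc1 and the pannexin gene Panx1. All 6 were found. The oocytes came from large antral follicles, opened by puncture, of ICR females aged 14 months and primed with equine chorionic gonadotropin, which stimulates follicle growth. In the aminophylline group (3 libraries) the drinking water held 4 mM aminophylline, a phosphodiesterase inhibitor related to theophylline, during 1 week, and plain water followed during 3 weeks. The control group (3 libraries, labelled as aged and untreated) received plain water throughout. No genotype other than the outbred stock was given, and the numbers of mice and oocytes behind a library were not given in the sources used here. P-values therefore measure the spread between these libraries, which may be technical in part. The same 6 libraries were used for every value, and young mice were not part of the comparison.

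Connexins assemble into hemichannels, and the hemichannels of neighbouring cells dock into a gap junction through which ions and small molecules pass. In the ovarian follicle, gap junctions connect the oocyte with the granulosa cells around it, and cyclic nucleotides made by granulosa cells reach the oocyte by this route. Cx37, encoded by Gja4, is known as the connexin on the oocyte side, and Cx43, encoded by Gja1, as the main connexin between granulosa cells. Pannexins have a similar fold but form channels in a single membrane and release ATP.

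The members lie on separate chromosomes. In the RefSeq annotation of GRCm38.p6, Gja4 spans chr4:127311420-127314039, Panx1 chr9:15005785-15045478 and Gja1 chr10:56377300-56390419. Gjb2 spans chr14:57098602-57104702, Gjc1 chr11:102799477-102819686 and Gja5 chr3:97032402-97053634.

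The upstream sequence of the oocyte connexin gene Gja4 is shown beside that of the granulosa connexin gene Gja1, because these members of 1 family stood far apart in level. The 250 bases before the annotated start are from RefSeq, GRCm38.p6, and lie at chr4:127314040-127314289 on the minus strand for Gja4 and at chr10:56377050-56377299 on the plus strand for Gja1. Capitals mark TGACG or its reverse complement, the first bases of the cAMP response element TGACGTCA, searched on both strands.
Gja4: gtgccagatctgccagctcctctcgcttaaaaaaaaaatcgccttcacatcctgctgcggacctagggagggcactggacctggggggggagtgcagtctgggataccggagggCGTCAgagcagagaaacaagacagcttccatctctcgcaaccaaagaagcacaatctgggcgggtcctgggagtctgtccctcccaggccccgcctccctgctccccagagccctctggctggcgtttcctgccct
Gja1: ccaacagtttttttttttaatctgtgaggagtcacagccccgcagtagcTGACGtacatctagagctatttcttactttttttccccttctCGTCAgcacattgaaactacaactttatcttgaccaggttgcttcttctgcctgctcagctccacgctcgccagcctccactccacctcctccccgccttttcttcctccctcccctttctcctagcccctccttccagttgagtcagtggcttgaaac
The Gja4 window held 1 match, which began 136 bases before the start. The Gja1 window held 2 matches, at 201 and 159 bases. Each of the 5 members with a promoter in the table (all but Gjc1) held at least 1 match, and of all 32851 promoter windows of this length 17.8% did. The whole element TGACGTCA was found in none of the 5 windows and in 1.55% of all windows. The E-box CANNTG, the motif of the oocyte factor Figla, was found in the windows of Gja1 and Gjb2, once each, and in 66.2% of all windows. TAATTG, a motif of the oocyte factor Nobox, was found in none of the 5 windows and in 7.17% of all windows. These matches describe the letters of the windows, and the starts used in oocytes were not measured.

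The libraries held 14112341 to 33641283 reads, recovered from the deposited FPKM values (fragments scaled by transcript length and sequencing depth). FPKM is per length, so levels of different genes can be set side by side. All 12 oocyte markers, among them Gdf9 and Zp3, were tested, with summed levels of 9160 to 14187 FPKM in control libraries and 11373 to 13235 FPKM in aminophylline libraries. The labelled cell type was thus found in every library. Of 14 granulosa and cumulus markers, 11 were under 1 FPKM in every library, and their summed level was 16.0 to 24.0 FPKM in control and 17.7 to 22.9 FPKM in aminophylline libraries. Most of that sum came from Cyp19a1 and Nr5a2. Of the 14 markers, 7 were above 0 in every library, among them Inha, which passed the filter with a mean of 1.21 FPKM, and Fshr and Kitl at lower levels. Amh was at 0 in 5 and Npr2 in 3 of the 6 libraries. Control library 1 stood apart by macrophage transcripts. Lyz2 was at 66.4 FPKM there and at most 0.573 FPKM elsewhere. The summed level of the 8 macrophage markers was 182 FPKM in that library and 81.0 to 102 FPKM in the other control libraries, against 81.2 to 100.8 FPKM in aminophylline libraries. Outside control library 1 nearly all of this sum was C1qb, at 79.2 to 99.8 FPKM. C1qb went against the other markers, being lowest in control library 1 (72.3 FPKM), and C1qc was at 0 in the other 5 libraries.

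**Figure D1:**
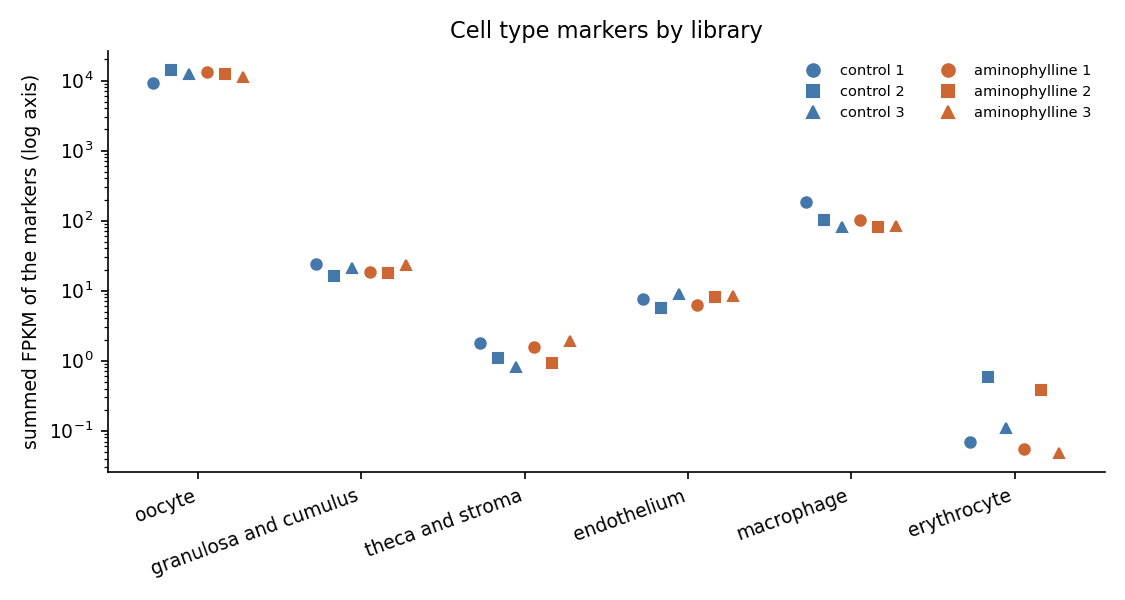
Summed FPKM (log axis) of the marker genes of 6 cell types in each library, 1 point per library. Oocyte markers summed to 9160 to 14187 FPKM, and the macrophage sum was highest in control library 1, at 182 FPKM.

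Gja4 was by far the most abundant member. It had 144, 212 and 238 FPKM in control libraries and 266, 234 and 297 FPKM in aminophylline libraries. Its mean of 232 FPKM placed it at rank 476 of the 10340 genes tested, above 95.4% of them. Panx1 followed with 16.2, 17.1 and 19.9 FPKM in control libraries and 17.5, 18.9 and 19.3 FPKM in aminophylline libraries, rank 3128 of 10340. Within a library Gja4 was 8.89 to 15.4 times as high as Panx1.

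The other connexin members were under 1 FPKM in every library. Gja1 had 0.639, 0.398 and 0.421 FPKM in control libraries and 0.342, 0.113 and 0.744 FPKM in aminophylline libraries, which stood for 69, 18, 43, 31, 9 and 73 reads. Its level was 0.0484% to 0.444% of that of Gja4 in the same library. Gjb2, which encodes Cx26, a connexin of the cochlea and liver, had 0.223, 0.354 and 0.615 FPKM in control libraries and 0.280, 0.285 and 0.626 FPKM in aminophylline libraries, from 12 to 47 reads. Gjc1, which encodes Cx45 of vascular muscle and the cardiac conduction system, had 0.0409, 0.0585 and 0.0866 FPKM and then 0.0390, 0.0667 and 0.00900 FPKM, from 5, 3, 10, 4, 6 and 1 reads. Gja5, which encodes Cx40 of arterial endothelium and atrial muscle, was listed at 0 in 4 libraries. It had 4 reads in control library 3 (0.0396 FPKM) and 1 read in aminophylline library 3 (0.0103 FPKM). The detection limit, set at 3 reads, is 0.0280 to 0.0668 FPKM of Gja5 in those 4 libraries. The exact Poisson 95% interval of a count of 0 reaches up to 0.0345 to 0.0822 FPKM there. These limits cover counting error only. Gja5 and Gjb2 each overlap a long non-coding gene in the RefSeq annotation (4930573H18Rik and Gm32912), and whether the counting used strand is not given, so their few reads cannot be told apart from reads of those genes.

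**Figure D2:**
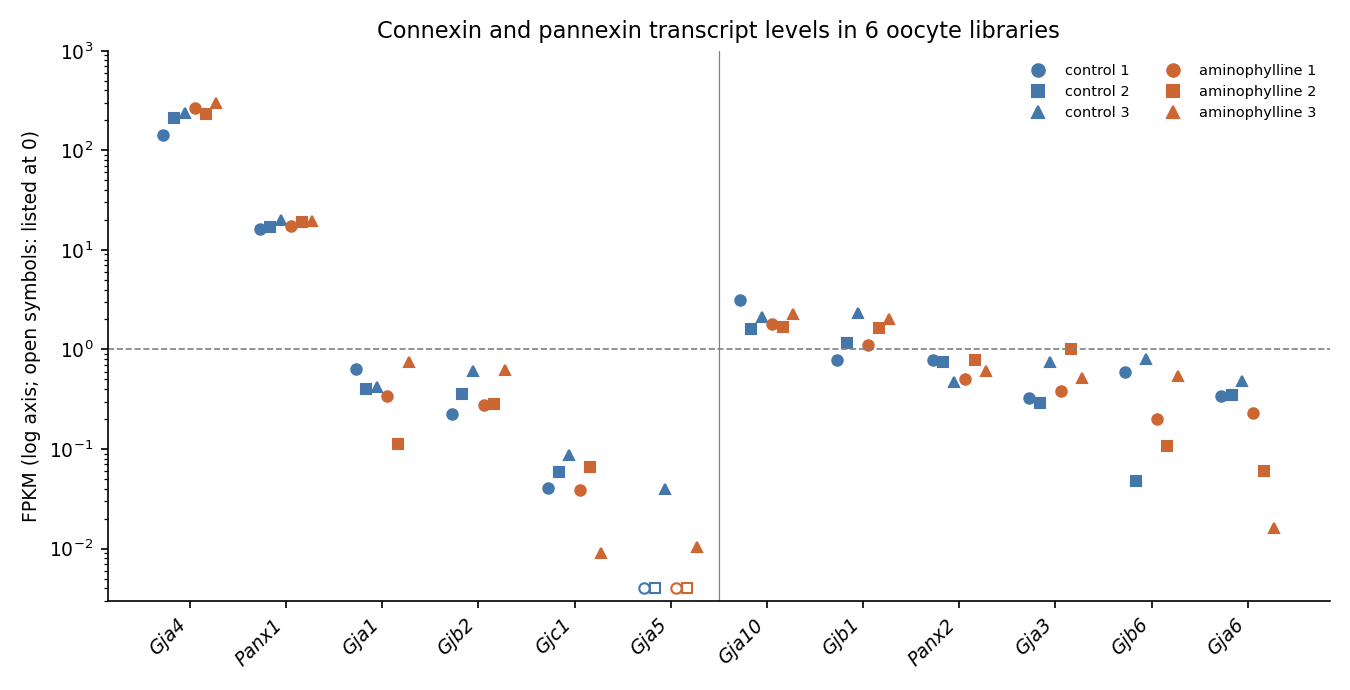
FPKM (log axis) of the 6 members, left of the vertical line, and of 6 other connexin and pannexin genes, with 1 point per library and open symbols for values listed at 0. Gja4 (144 to 297 FPKM) and Panx1 (16.2 to 19.9 FPKM) lay above the dashed line at 1 FPKM in every library, and the other members lay below it in every library.

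The order of mean levels was Gja4, Panx1, Gja1, Gjb2, Gjc1 and Gja5. The ratio of mean FPKM was 12.8 for Gja4 over Panx1, 41.0 for Panx1 over Gja1, 7.92 for Gjb2 over Gjc1 and 6.04 for Gjc1 over Gja5. An exact two-sided sign-flip permutation test over the 6 libraries compared neighbours within libraries. Its smallest p is 0.0312, and the order itself came from the same libraries. The differences are on the log2(FPKM + 1) scale, where the added 1 shrinks those that involve low genes. Gja4 was above Panx1 in 6 of 6 libraries by 3.57 ± 0.29 (SD, n = 6; exact p = 0.0312, adjusted over the 5 pairs p = 0.0521). Panx1 was above Gja1 in 6 of 6 libraries by 3.74 ± 0.27 (SD, n = 6), with the same exact p. Gjb2 was above Gjc1 in 6 of 6 libraries by 0.40 ± 0.18 (SD, n = 6), again with the same exact p. Gja1 and Gjb2 did not differ beyond their spread. The difference was 0.04 ± 0.23 (SD, n = 6), Gja1 was the higher in 4 of 6 libraries, and the exact p was 0.719. Gjc1 was above Gja5 in 5 of 6 libraries by 0.06 ± 0.03 (SD, n = 6; exact p = 0.0625, adjusted p = 0.0781). With 6 libraries and 5 pairs no adjusted p fell under 0.05.

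The comparison of the groups asks whether oral aminophylline was followed by a different level of these transcripts. It was tested with limma on log2(FPKM + 1) for genes that reached 1 FPKM in 3 or more libraries, a filter that Gja4 and Panx1 passed and the other 4 members did not. Of all 10340 genes tested, 0% had an adjusted p under 0.05 (Benjamini-Hochberg) and 7.25% had an unadjusted p under 0.05, 4.41% higher and 2.84% lower with aminophylline. A further criterion, an unadjusted p under 0.05 with a fold change over 1.5, was met by 3.21% of all genes and by neither Gja4 nor Panx1. In counts, the genes past the adjusted and the unadjusted threshold were 0 genes and 750 genes. With limma's voom on the recovered reads they were 0 and 761. With the replicate number as a block they were 47 and 1467. The median log2 difference of all genes tested was 0.10, and the higher genes made up 60.8% of those with an unadjusted p under 0.05. This split was 35.9% with median centring and 39.7% with quantile normalization.

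Gja4 was higher in mean in the aminophylline group, but not beyond the spread between libraries after adjustment. The means were 198 ± 48.8 FPKM (SD, n = 3) in the control group and 266 ± 31.6 FPKM (SD, n = 3) in the aminophylline group, a ratio of 1.34. The groups overlapped, since aminophylline library 2 (234 FPKM) lay below control library 3 (238 FPKM). Between libraries of the same number Gja4 was higher with aminophylline in 3 of 3 pairs. No source says what a number shares, and the share of all genes with 3 of 3 was not counted. Of all genes tested, 64.8% had a higher mean with aminophylline. With the replicate block the limma unadjusted p of Gja4 was 0.0158 and the adjusted p 0.247. In that fit 14.2% of all genes had an unadjusted p under 0.05. The log2 difference was 0.45 (standard error 0.20, 95% interval 0.01 to 0.89, limma unadjusted p = 0.0478, adjusted p = 0.684). An exact permutation test of the FPKM values gave p = 0.2, where 3 libraries against 3 allow no p below 0.1. The value leaned on control library 1, which had the lowest Gja4 of all libraries and the macrophage transcripts described above. Without that library the log2 difference was 0.23 (limma unadjusted p = 0.195). The part of the macrophage transcripts in the difference was not tested. Control library 1 also had the lowest summed oocyte markers, but single markers did not all follow the sum. Gdf9 (1518 FPKM, against 2845 to 3663 FPKM elsewhere), Zp3, Figla, Nobox, Nlrp5 and Mos were lowest there. Bmp15, Zp1, Zp2, Ddx4, Kit and Oosp1 were not. Relative to the summed oocyte markers Gja4 was at 1.57%, 1.497% and 1.92% in control libraries and 2.01%, 1.88% and 2.61% in aminophylline libraries. On this ratio, which uses the same Gja4 values, Gja4 was also higher in 3 of 3 same-numbered pairs. Aminophylline library 2 again lay below control library 3, and the exact permutation p was 0.2. In bulk libraries, fewer cells of a type and less RNA per cell cannot be told apart.

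**Figure D3:**
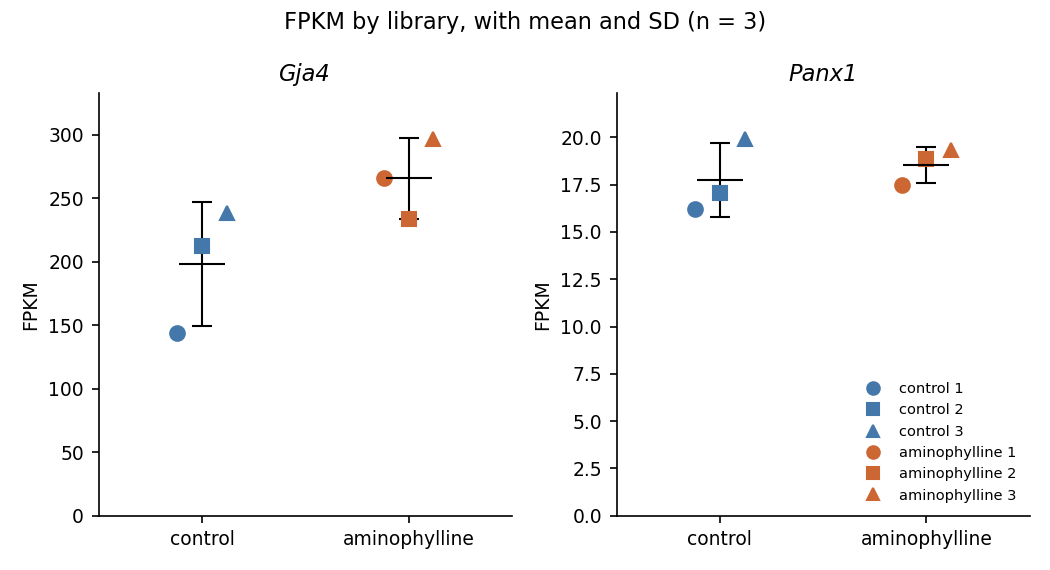
FPKM of Gja4 and Panx1 in each library (points), with the group mean and SD (bars, n = 3), on axes that start at 0. Gja4 ranged from 144 to 238 FPKM in control and from 234 to 297 FPKM in aminophylline libraries, and for Panx1 the aminophylline libraries (17.5 to 19.3 FPKM) lay within the control range (16.2 to 19.9 FPKM).

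Panx1, the ATP release channel, did not differ between the groups beyond the spread of the libraries. The means were 17.7 ± 1.95 FPKM (SD, n = 3) in the control group and 18.6 ± 0.945 FPKM (SD, n = 3) in the aminophylline group. Every aminophylline library lay inside the control range. The log2 difference was 0.07 (standard error 0.18, 95% interval -0.33 to 0.46, limma adjusted p = 0.930), and it was -0.02 with median centring. Over all 6 libraries the highest Panx1 value was 1.23 times the lowest, against 2.06 times for Gja4. The ratio of Gja4 to Panx1 was 8.89, 12.4 and 11.96 in control libraries and 15.2, 12.4 and 15.4 in aminophylline libraries. The groups overlapped in this ratio too (exact permutation p = 0.2).

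**Figure D4:**
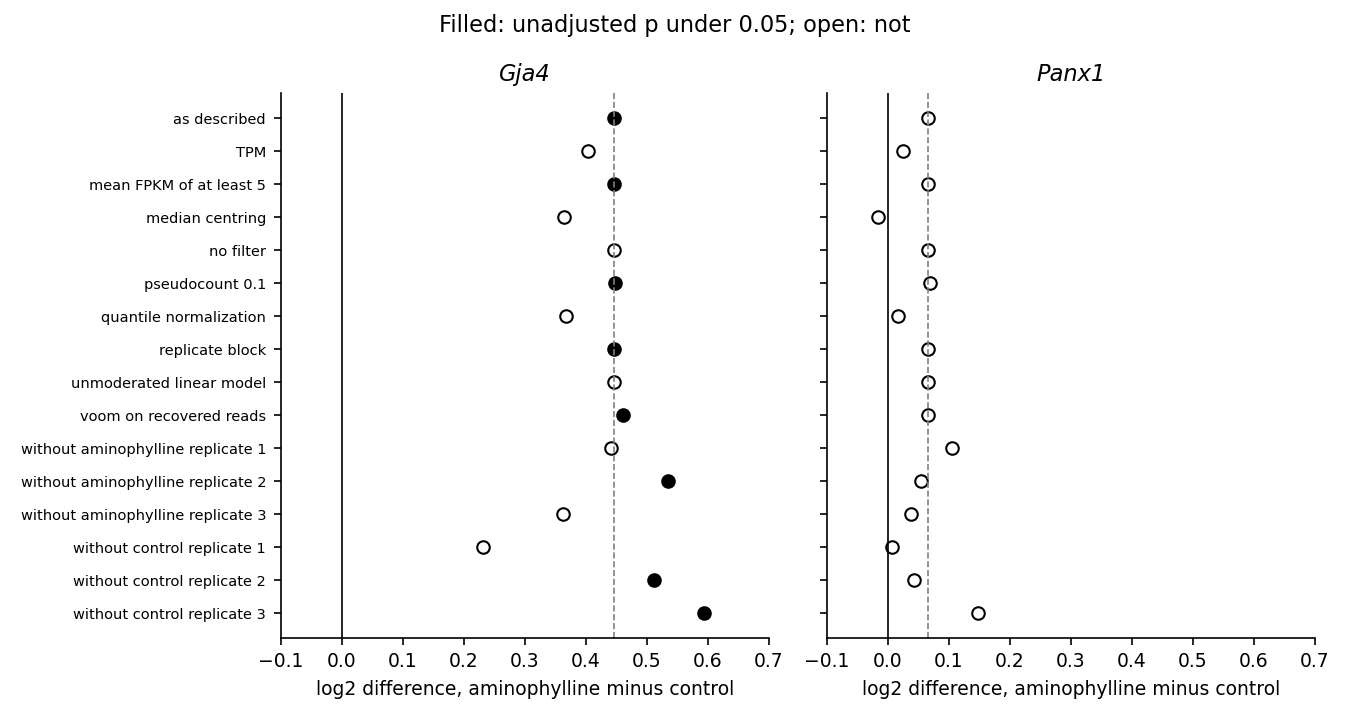
Log2 difference (aminophylline minus control) of Gja4 and Panx1 under each way of processing, with filled points for an unadjusted p under 0.05. Gja4 stayed above 0 in every setting drawn, between 0.23 without control library 1 and 0.59 without control library 3, and Panx1 lay between -0.02 and 0.15.

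None of the 4 members below the filter separated the groups. Gja1 had means of 0.486 ± 0.133 FPKM (SD, n = 3) in the control group and 0.400 ± 0.319 FPKM (SD, n = 3) in the aminophylline group (exact permutation p = 0.8). The aminophylline libraries held both the lowest and the highest value, 0.113 FPKM (95% counting interval 0.0518 to 0.215) and 0.744 FPKM (0.583 to 0.935), so the libraries of 1 group differed by more than counting error. The highest Gja1 values, in aminophylline library 3 and control library 1, fell in the libraries with the highest summed theca and stroma markers (1.90 and 1.77 FPKM, against 0.812 to 1.59 FPKM in the others) and the highest summed granulosa markers (22.9 and 24.0 FPKM, against 16.0 to 20.9 FPKM). Most of the theca and stroma sum there was Dcn, at 1.32 FPKM in aminophylline library 3 and 1.41 FPKM in control library 1. Single markers did not all follow the sums. Dcn, Hsd17b1 and Amhr2 were highest in these libraries. Inha and Star were lowest in control library 1 (0.417 and 0.169 FPKM), and Cyp19a1 was lower in aminophylline library 3 than in control library 3. The part of these markers in the Gja1 values was not tested. Gjb2 had 0.397 FPKM in both groups, with an SD of 0.200 in control and 0.198 in aminophylline (n = 3 each, exact permutation p = 1). Within both groups library 3 was the highest. Gjc1 had 0.0620 ± 0.0230 FPKM (SD, n = 3) in control and 0.0382 ± 0.0289 FPKM (SD, n = 3) with aminophylline (exact permutation p = 0.4), from 18 and 11 reads in all. Gja5 had 4 and 1 reads in all, too few for a fold. For Gjc1 and Gja5 a difference was not detectable at this depth, and for Gja1 and Gjb2 it was within the spread between libraries.

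Of the 23 connexin and pannexin genes of the mouse family listed, 18 were in the table and 13 of them were under 1 FPKM in every library. Summed over the 16 connexin genes in the table, the level was 150, 217 and 246 FPKM in control libraries and 271, 239 and 304 FPKM in aminophylline libraries. Gja4 alone made up 95.8%, 97.9% and 96.7% of this sum in control libraries and 98.3%, 97.8% and 97.7% in aminophylline libraries. The mean share was 1.15 percentage points higher with aminophylline, which was within the spread (exact permutation p = 0.3). The remaining connexins together came to 4.61 to 8.05 FPKM.

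Gja10, a connexin gene of retinal horizontal cells, was the next most abundant connexin, with 3.15, 1.59 and 2.11 FPKM in control and 1.82, 1.68 and 2.28 FPKM in aminophylline libraries. Its log2 difference was -0.14 (standard error 0.23, limma adjusted p = 0.874), and it was 0.04 without control library 1. Gjb1, the connexin gene of liver and Schwann cells, had 0.788, 1.15 and 2.33 FPKM and then 1.11, 1.63 and 2.02 FPKM. Its log2 difference was 0.13 (standard error 0.26, limma adjusted p = 0.904), and it was -0.06 without control library 1. Both of these genes thus had overlapping groups and differences within their spread.

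Of the family members under the filter, Gja6 was the one whose groups did not overlap. It had 0.339, 0.351 and 0.483 FPKM in control libraries (23, 10 and 31 reads) and 0.228, 0.0600 and 0.0162 FPKM in aminophylline libraries (13, 3 and 1 reads). The exact permutation p was 0.1, the smallest that 3 against 3 allow. Groups did not overlap in 12.5% of the genes that passed the filter, a set without Gja6. In the limma fit without a filter the unadjusted p of Gja6 was under 0.05, as in 5.48% of all genes of that fit. The groups overlapped for Gja3, a lens connexin gene (0.289 to 1.02 FPKM), Gjb6, a cochlear connexin gene (0.0475 to 0.802 FPKM), and Panx2 (0.473 to 0.786 FPKM).

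Genes that work with gap junctions were grouped in lists by role. Over the lists written by hand, 34 genes were tested, of which 2 were higher and 1 was lower at an unadjusted p under 0.05 (8.82%, against 7.25% of all genes), and 0 had an adjusted p under 0.05 in limma. With the replicate block the count at an unadjusted p under 0.05 was 6 in place of 3 (17.6%, against 14.2% of all genes in that fit). Without control library 3 it was 13 (39.4%, against 14.2% of all genes). It was 0 without control library 1 and 0 without aminophylline library 3, where 3.52% and 4.12% of all genes passed, and 1 without aminophylline library 2 (3.03%, against 3.16%). The median log2 difference of the 34 genes was 0.18, and 79.4% of them had a higher mean with aminophylline, against 64.8% of all genes tested. Of the 3 genes, 1 was Gja4 itself.

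The other 2 belonged to the list of adherens junction and scaffold genes, of which 6 of 12 were tested. Cdh2, which encodes N-cadherin, had 3.83, 2.55 and 2.62 FPKM in control libraries and 2.05, 1.66 and 1.66 FPKM in aminophylline libraries. Every aminophylline library lay below every control library, and groups did not overlap, in either direction, in 12.5% of all genes tested. The log2 difference was -0.51 (standard error 0.21, limma unadjusted p = 0.0371, adjusted p = 0.682). Ctnna1, which encodes the alpha-catenin that connects cadherins to actin, had 8.54, 8.77 and 12.5 FPKM and then 11.3, 14.6 and 18.5 FPKM. Its log2 difference was 0.52 (standard error 0.23, limma unadjusted p = 0.0471, adjusted p = 0.684), and the groups overlapped. Ctnnb1, beta-catenin, was the most abundant of this list, at 15.4 to 38.3 FPKM in control and 21.96 to 44.3 FPKM with aminophylline (log2 difference 0.35, limma adjusted p = 0.779).

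In the main fit, 0 genes of the following lists had an unadjusted p under 0.05. These were trafficking and turnover (6 genes tested), connexin kinases (8), transzonal projections (2), cyclic nucleotides (6) and pannexin partners (2). With the replicate block Daam1 of the transzonal list (limma unadjusted p = 0.0250) and Vcp of the trafficking list, named here after its value was seen, passed that threshold. Transzonal projections are the granulosa cell extensions that end in gap junctions on the oocyte. Of that list Daam1, a formin, and Myo10, an unconventional myosin, had log2 differences of 0.52 and 0.33 (limma adjusted p = 0.710 and 0.767 without the block). The libraries were made from oocytes, so these values do not measure the projections. The vesicle gene Rab11a had 293 to 318 FPKM over all libraries, and its log2 difference of 0.01 had a 95% interval of -0.30 to 0.32. The ubiquitin gene Ubb was the most abundant gene named here, at 3597 to 7829 FPKM in control and 4183 to 6145 FPKM with aminophylline. Among kinases that phosphorylate connexins, Cdk1 had 46.9 to 51.1 FPKM in control and 56.7 to 61.8 FPKM with aminophylline. Its groups did not overlap, as in 12.5% of all genes tested, and its log2 difference was 0.27 (limma unadjusted p = 0.104). The unadjusted p of Cdk1 was 0.00569 in the unmoderated linear model and 0.0302 in the limma fit without a filter. In those fits 6.55% and 5.48% of all genes had an unadjusted p under 0.05, and the adjusted p of Cdk1 was 0.673 and 0.836. Mapk3 had 109 to 189 FPKM and 153 to 203 FPKM, with a log2 difference of 0.29 (limma adjusted p = 0.735).

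Gpr3 and Gnas, the receptor and G protein that keep cAMP high in the oocyte, had log2 differences of -0.11 (limma adjusted p = 0.932) and 0.09 (limma adjusted p = 0.927). Gpr3 was at 0.25 without control library 3 and Gnas at -0.04 without control library 1, so neither direction was stable. Npr2 and Nppc, the granulosa receptor and its ligand that supply cGMP through gap junctions, did not pass the filter. Of the pannexin partners, Entpd1, which breaks down released ATP, had a log2 difference of -0.27 (limma adjusted p = 0.798). The ATP-gated channel gene P2rx4 had one of 0.01 (95% interval -0.46 to 0.49), and its sign was negative under each other scaling tried.

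The deposited annotation places 80 genes in the KEGG pathway named for the gap junction, which lists tubulins and signalling proteins beside connexins. Of these, 44 were tested, and 0 had an adjusted p under 0.05. At an unadjusted p under 0.05, 5 were higher and 0 were lower. This was 11.4%, against 7.25% of all genes in either direction and 4.41% of all genes higher. The count was 8 with the replicate block (18.2%, against 14.2% of all genes in either direction) and 12 without control library 3 (29.3%, against 14.2%). It was 2 with TPM (4.17%, against 5.45%) and 3 with median centring (6.82%, against 7.57%). It was 3 without aminophylline library 3 (7.32%, against 4.12%) and 1 without control library 1 (2.33%, against 3.52%). The median log2 difference of the 44 genes was 0.18. Of the 5 genes, 4 were tubulin genes, and none was a connexin gene.

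Tubulins form the microtubules of the spindle. Tubb4b had 389, 618 and 594 FPKM in control and 681, 785 and 634 FPKM in aminophylline libraries (log2 difference 0.415, limma adjusted p = 0.688), and Tubb6 had 181, 231 and 284 FPKM and then 336, 316 and 331 FPKM (log2 difference 0.52, limma adjusted p = 0.676). Tubb2a and Tuba1c had log2 differences of 0.68 and 0.67 (limma adjusted p = 0.682 and 0.684). Tubb2b had the largest difference of those named, 1.49, with a limma adjusted p of 0.455, and with the replicate block its adjusted p was 0.00207. Over all settings that adjusted p ranged from 0.00207 to 0.999. Map2k2, a MAP kinase kinase gene, had a log2 difference of 0.69 (limma adjusted p = 0.682). Tubulin genes are near copies of each other, and reads shared between them may have been split by the counting.

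**Figure D5:**
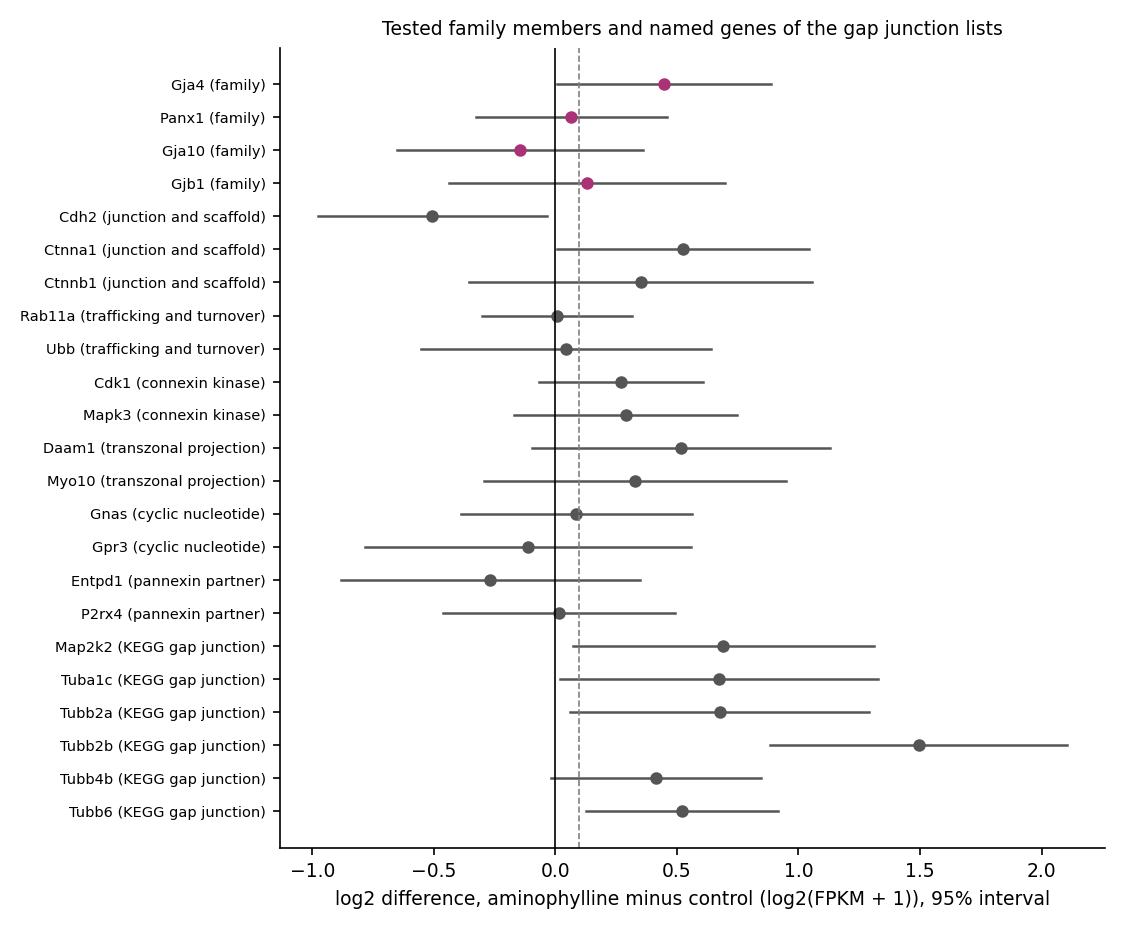
Log2 differences (aminophylline minus control, on log2(FPKM + 1)) with 95% intervals for the 4 tested family members and the named genes of each list. The dashed line marks the median of all genes tested (0.10). The interval of Gja4 (0.01 to 0.89) began just above 0, and those of Panx1, Gja10 and Gjb1 spanned 0.

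Among the 4271 other genes with a mean of at least 10 FPKM, those whose levels followed Gja4 most closely over the 6 libraries included Med22 and Prss12, with Pearson correlations of 0.997 and 0.994 on the log2(FPKM + 1) scale. For Panx1 they were Igsf3, Kdm1b and Csnk1e, with 0.997, 0.995 and 0.993. These correlations are descriptions over 6 points that share library and depth. A correlation over 0.9 was reached by 126 genes for Gja4 and by 197 genes for Panx1.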

How the data were processed

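The authors deposited FPKM values for 25631 genes, 1 column for each of 6 oocyte RNA-seq libraries, made with the VAHTS Universal V6 kit per the labels, which also gave groups and replicate numbers. The submitters' processing notes name GRCm38 and mm10. The aligner and counter are not given in the sources used here. Promoters and overlaps came from RefSeq GRCm38.p6.

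Whole reads were recovered from the steps of the FPKM values (100% of 120146 values whole within 0.0001 reads), and gave depths of 14112341 to 33641283 reads. The limit of detection was set at 3 reads, and intervals are exact Poisson 95% intervals that cover counting error only. Groups were compared with limma 3.58.1 in R 4.3.3 (trended variance, two-sided) on log2(FPKM + 1) for 10340 genes that reached 1 FPKM in 3 or more libraries, with Benjamini-Hochberg adjustment over all of them. Members under the filter were compared by exact two-sided permutation in scipy 1.17.1. The fit was checked on simulated data with 4-fold changes in 200 genes, of which 200 were called, along with 12 unchanged genes. Changes as small as that of Gja4 were not simulated. Alternatives were TPM scaling, other filters, pseudocount and centring, voom on the reads, single libraries left out and a replicate block.

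Deviations from the group means correlated between same-numbered libraries at 0.138, 0.140 and 0.552. Each was over 0.1, so the numbers of the labels were used to pair libraries in the replicate block and in the same-numbered comparisons. No source says what a number shares, and correlations between differently numbered libraries were not set beside these values. The main limma fit and the permutation tests of the groups were unpaired.

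Named genes were the members, family genes with at least 0.1 FPKM in at least 3 libraries, each list's tested genes with an unadjusted p under 0.05 and its 2 most abundant, and the 3 genes most correlated with each tested member. A few genes that this rule or the lists name are not reported here. The members, lists and motifs were chosen with earlier results of these data known.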

Additional observations from a re-analysis of the deposited data

How the results depend on the processing

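The limma adjusted p of Gja4 stayed over 0.05 in every setting tried, from 0.247 with the replicate block to 0.999, and its log2 difference stayed positive (0.36 to 0.46, and 0.23 to 0.59 with single libraries left out). Its unadjusted p was under 0.05 in 4 of 9 other settings and in 3 of 6 fits without a library. It was 0.0158 with the replicate block, 0.0792 with TPM, 0.0797 without a filter, 0.126 with median centring, 0.106 with quantile normalization and 0.137 with the unmoderated linear model. Relative to the summed oocyte markers, an alternative chosen after seeing the data, the log2 difference was 0.38. Panx1 turned to -0.0159 with median centring (0.01 to 0.15 without single libraries).

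The number of genes with an adjusted p under 0.05 went from 0 to 47 with the replicate block. At an unadjusted p under 0.05 it went from 750 to 1467 with the block and to 1404 with no filter, and it was 316 to 1593 with single libraries left out. The hand-written lists went from 3 of 34 tested genes (8.82%, against 7.25% of all genes) to 6 with the block (17.6%, against 14.2%). With TPM the count was 1 of 43 (2.33%, against 5.45%). With the filter at a mean of 5 FPKM it was 1 of 19 (5.26%, against 8.92%), and without single libraries it was 0 to 13. The KEGG list went from 5 genes to 8 with the block (18.2%, against 14.2%). It went to 2 with TPM (4.17%, against 5.45%) and to 3 with median centring (6.82%, against 7.57%). Without single libraries it was 1 to 12. Of the members and named list genes refitted in each setting, Tubb2b alone passed an adjusted p of 0.05, with the block. At the unadjusted threshold the block also brought in Daam1 (limma adjusted p = 0.279) and Tubb4b (limma adjusted p = 0.263), and it changed no other call among these genes.

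The difference in mean FPKM, aminophylline minus control, was -0.258 to 0.0569 for Gja1, -0.114 to 0.109 for Gjb2, -0.0163 to 0.00343 for Gja5 and -0.0380 to -0.00917 for Gjc1 with single libraries left out. The direction of Gja1 turned without aminophylline library 2, that of Gja5 without control library 3 and that of Gjb2 without control library 3, aminophylline library 1 or aminophylline library 2. The share of Gja4 differed by 0.638 to 1.68 percentage points.

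Some named genes with differences near 0 changed sign with another scaling. P2rx4 went to -0.0222 with TPM, -0.0682 with median centring, -0.101 with quantile normalization and -0.0018 with voom. Rab11a went to -0.0359 with TPM, -0.0743 with median centring and -0.0623 with quantile normalization, and Ubb to -0.0013 with TPM and -0.0396 with median centring. With single libraries left out, signs also turned for Gja10 (-0.303 to 0.0386), Gjb1 (-0.0638 to 0.385), Gnas (-0.0413 to 0.252), Gpr3 (-0.374 to 0.248), P2rx4 (-0.0693 to 0.132), Rab11a (-0.0158 to 0.0426) and Ubb (-0.182 to 0.379). The cause of these changes was not tested. The depth limited Gjc1 and Gja5, with 29 and 5 reads in all.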
